A study of Mus musculus with 6 samples.

Results

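The Zfp genes of the mouse are a large set of genes named for their zinc finger proteins, and 58 of them were hosts of circular RNAs (circRNAs) in the hippocampal libraries described here. CircRNAs are rings of RNA, many of which are made when a downstream splice donor is joined to an upstream splice acceptor. Members were the circRNAs whose only Ensembl host identifier carries a GENCODE vM21 symbol that starts with Zfp and a digit. This gave 130 circRNAs of 58 hosts, out of 9208 circRNAs of 3675 hosts with a lone host identifier and 10652 circRNAs in all. The rule used the symbol and no measured value, but the set was chosen with earlier results of these data known.

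The chronic unpredictable stress (CUS) group held 3 libraries and the Control group 3 libraries, each from hippocampus of adult male C57BL/6 mice bought at 8 to 10 weeks of age. CUS mice met randomly scheduled mild stressors, among them food or water deprivation, cold swimming, restraint and cage tilt, over 4 weeks, while Control mice were healthy and not stressed. The labels name no transgene or drug in either group. Samples are called independent without a statement that each came from its own mouse, so a p-value here reflects only how these samples vary, and that variation may be technical.

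A classical C2H2 zinc finger holds a zinc ion between a pair of cysteines and a pair of histidines, and arrays of such fingers read DNA. Many Zfp proteins also carry a KRAB domain, which recruits the corepressor TRIM28 and the histone methyltransferase SETDB1 to silence chromatin, often at transposable elements. Others lack it, bind gene promoters or partner proteins, and act in development. The human counterpart of Zfp609 is a known circRNA host.

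To show the motif by which these genes are named, the first finger in the coding sequence of 4 of them is given, from GENCODE vM21 on GRCm38, with the codons of the zinc-binding cysteines and histidines in capitals. Zfp563 (chr17:33104943-33105005, plus strand) and Zfp943 (chr17:21992478-21992540, plus strand) are examples of hosts with a KRAB motif. Zfp827 (chr8:79070403-79070465, plus strand) and Zfp609 (chr9:65704120-65704191, minus strand) are examples of hosts without it.
Zfp563: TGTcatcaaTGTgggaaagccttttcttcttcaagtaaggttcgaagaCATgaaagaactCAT
Zfp943: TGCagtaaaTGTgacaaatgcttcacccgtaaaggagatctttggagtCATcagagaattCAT
Zfp827: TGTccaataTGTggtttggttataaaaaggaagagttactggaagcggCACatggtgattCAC
Zfp609: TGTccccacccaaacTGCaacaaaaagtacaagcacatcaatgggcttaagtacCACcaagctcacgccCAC
The Zfp563 and Zfp943 stretches had the same base at 37 of 63 positions (58.7%), against 23 of 63 (36.5%) for Zfp563 and Zfp827. The Zfp609 stretch is longer, at 72 bases. These are parts of the host genes and not of the circRNAs, whose positions were not used here.

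By translated coding sequence, 57 of the 58 hosts had at least 1 C2H2 motif, with a median of 10 and a maximum of 36 in Zfp142. The exception was Zfp365, which had 0 matches to the motif. A KRAB A-box motif was found in 20 hosts, whose median number of fingers was 11, and was not found in 38, whose median was 7. Zfp609, Zfp608, Zfp326 and Zfp704 had 1 finger motif each. Hosts lay on 17 chromosomes, led by chromosome 17 with 8 hosts, 7 of which had the KRAB motif. Chromosome 18 carried 7 hosts, none of which had it.

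Levels are 10 to the deposited log10 value, with 0 kept at 0, in the authors' own unit. The sources used here do not say what 1 unit stands for, and circRNA lengths were not used, so the order of hosts is an order of deposited levels and not of levels per length. How many reads each value rests on is unknown, and a listing at 0 does not show absence. CUS libraries listed 3991 to 4273 circRNAs above 0 and Control libraries 4329 to 4606. A relative depth was read from the spacing of low values, assuming that 1 spacing is equally many reads in each library. That assumption was not tested. The depth so read was 81.9 to 89.8% across CUS libraries and 90.8 to 100% in Control. Among circRNA hosts, 8 of 10 dentate granule cell markers and 4 of 10 CA pyramidal cell markers of the hippocampus were present, while choroid plexus markers (4 listed) had no circRNA. The summed level of the astrocyte list (4 of 10 with a circRNA, with Gfap and Aqp4 among those without) was 1710 to 2642 across CUS libraries and 1085 to 1525 in Control. That of the CA pyramidal list was 2084 to 3365 across CUS libraries and 4075 to 7963 in Control, with Man1a, Mpped1 and Fibcd1 among those without a circRNA. The microglial list was present through 1 of 8 markers, at 0 to 275 across CUS libraries and 208 to 1714 in Control, and Csf1r, Cx3cr1 and P2ry12 had none. The other lists overlapped between groups. The part of cell makeup and depth in the results below was not tested, and in tissue a change in the number of cells of a type cannot be told apart from a change in RNA per cell.

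The Zfp hosts together held an overlapping share of circRNA in both groups. Their summed level was 39835, 47331 and 42270.2 in CUS replicates 1 to 3, against 42762, 47062 and 44750.1 in Control replicates 1 to 3. The groups overlapped, with means of 43145 ± 3824 across CUS libraries and 44858 ± 2152 in Control (SD, n = 3 each). As a share of the level of all circRNAs with a lone host, this was 2.27 to 2.64% across CUS libraries and 2.40 to 2.64% in Control. Between 57 and 59 Zfp circRNAs were above 0 in each CUS library and between 61 and 65 in each Control library. Of the 130 circRNAs, 27 were above 0 in CUS libraries only, 37 in Control libraries only and 66 in both. Among all 9208 circRNAs with a lone host these numbers were 2128, 2447 and 4633.

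Most of that level came from a few hosts. Zfp532 alone carried 23.4% of the mean summed level, and Zfp532, Zfp827, Zfp148 and Zfp385b together carried 53.3%. At the other end 34 hosts (58.6%) had 1 circRNA, against 49.0% of all 3675 hosts, and 13 hosts were above 0 in 1 library only. The median Zfp host mean was 203 and the median of all hosts 191. Zfp host genes were shorter, with a median of 35.4 kb against 75.4 kb for all hosts. These shares describe the hosts and were not tested.

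**Figure D1:**
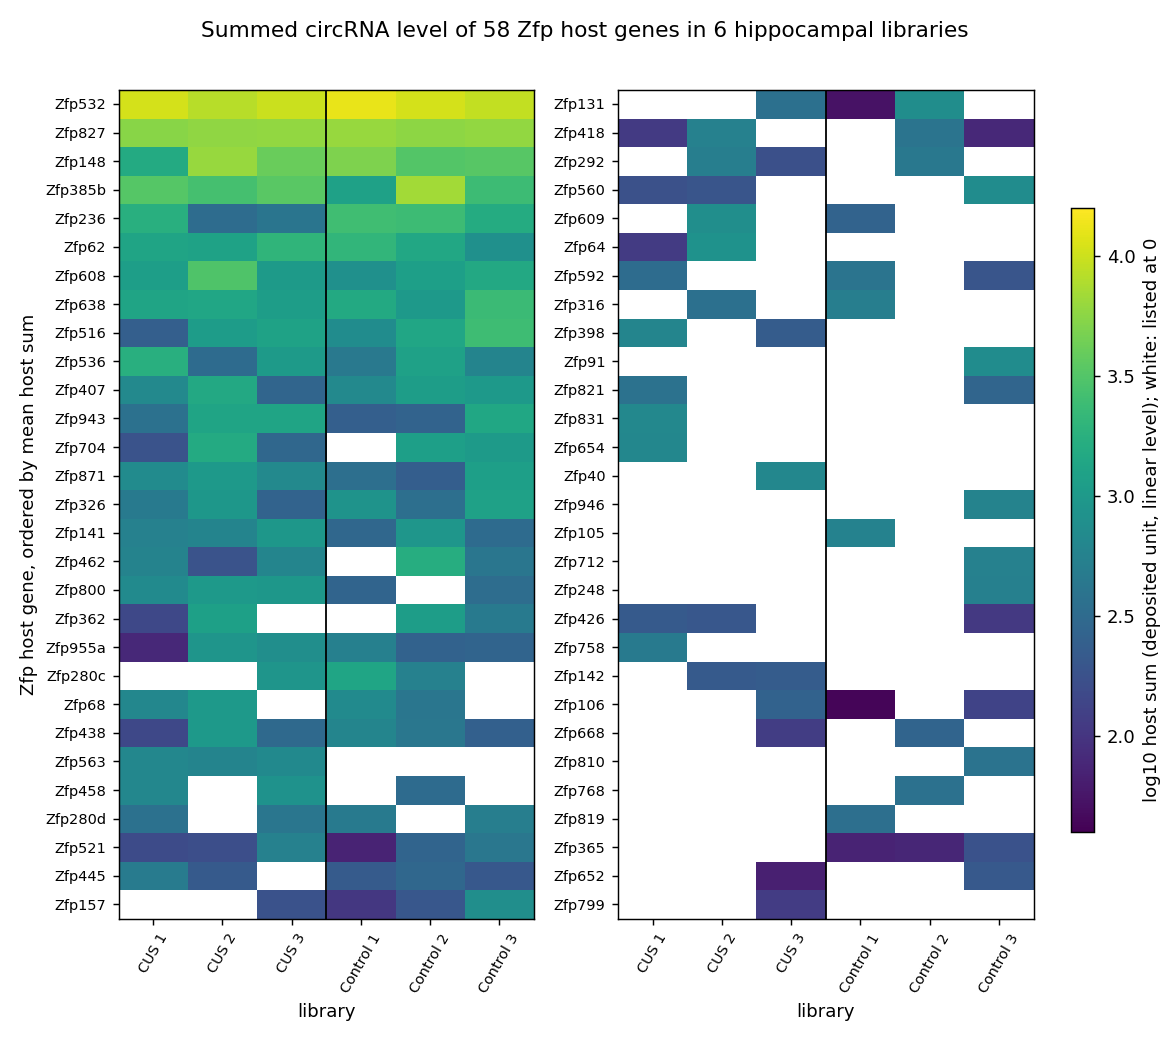
Host sums of the 58 Zfp genes (rows, ordered by mean) in 3 CUS and 3 Control libraries (columns), as log10 of the linear level in the deposited unit, with white for a host listed at 0. Zfp532 and Zfp827 are high in all 6 libraries, while each host in the right panel is listed at 0 in at least 2 of the 6.

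Zfp532, whose human counterpart is a fusion partner in NUT carcinoma (chromosome 18, 65579912 to 65689443), ranked 2 among all 3675 hosts. Its sum over 13 circRNAs was 10825, 8241 and 9761 across CUS libraries, against 13111, 10693 and 9168 in Control. The lowest CUS value was below all Control values, but CUS replicates 1 and 3 lay within the Control range, and the log2 difference was -0.19 with SE 0.27 (limma adjusted p = 0.917). Of its 13 circRNAs 8 were classed as intronic, and they carried 70.5% of the host's level. Of all Zfp circRNAs 13 (10.0%) were intronic, against 5.03% of circRNAs with a lone host, so Zfp532 alone supplied most of them. The intronic mmu_circRNA005215 made up 53.1% of the Zfp532 level and was the highest circRNA of the host in each of the 6 libraries, with 40.4% of the host sum in Control replicate 3 and 80.7% in CUS replicate 3.

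Below it, the exonic mmu_circRNA005207 was at 2842, 2321 and 1028 across CUS libraries, against 2559, 2420.5 and 2665 in Control. It was thus level in 5 libraries and lower in CUS replicate 3. The intronic mmu_circRNA005211 was at 796, 1495 and 788 across CUS libraries, against 1782, 2201 and 2011 in Control. Its groups did not overlap, and its log2 difference of -0.99 (SE 0.57) did not pass (limma adjusted p = 0.87). The remaining intronic circRNAs of Zfp532 were each above 0 in 1 Control library only, 5 of them in Control replicate 1 (125.5 to 531) and mmu_circRNA005210 in Control replicate 2 (418.5). In Control replicate 1, mmu_circRNA005203 and mmu_circRNA005205 had an identical level (261), and so did mmu_circRNA005204 and mmu_circRNA005206 (126), so these may share reads.

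Zfp827, whose human counterpart brings the NuRD complex to telomeres (chromosome 8, 79028437 to 79193766), ranked 10 among all hosts. Its sum over 12 exonic circRNAs was the most even of the leading hosts, at 5524, 5906 and 6018 across CUS libraries and 6328, 5744 and 5992 in Control. The means were 5816 ± 259 across CUS libraries and 6021 ± 293 in Control (SD, n = 3 each), and the log2 difference was -0.05 with SE 0.31 (limma adjusted p = 0.975). Every Zfp532 value lay above every Zfp827 value, whereas the next host, Zfp148, overlapped Zfp827.

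Inside the even Zfp827 sum single circRNAs varied widely. mmu_circRNA010091 was at 430.4, 2235 and 2457 across CUS libraries, against 1081, 1674 and 1250 in Control. mmu_circRNA010090 was at 2659, 151 and 1571 across CUS libraries, against 1359, 1583 and 1375 in Control. For mmu_circRNA010091 the CUS libraries lay on either side of the Control range, and for mmu_circRNA010090 CUS replicate 3 lay within it, replicate 1 above and replicate 2 below. The third, mmu_circRNA010098, was at 475, 1347 and 419 across CUS libraries, against 1012, 1298 and 1713 in Control, with overlap. The highest Zfp827 circRNA was mmu_circRNA010091 in 3 libraries, mmu_circRNA010090 in CUS replicate 1 and Control replicate 1, and mmu_circRNA010098 in Control replicate 3.

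**Figure D2:**
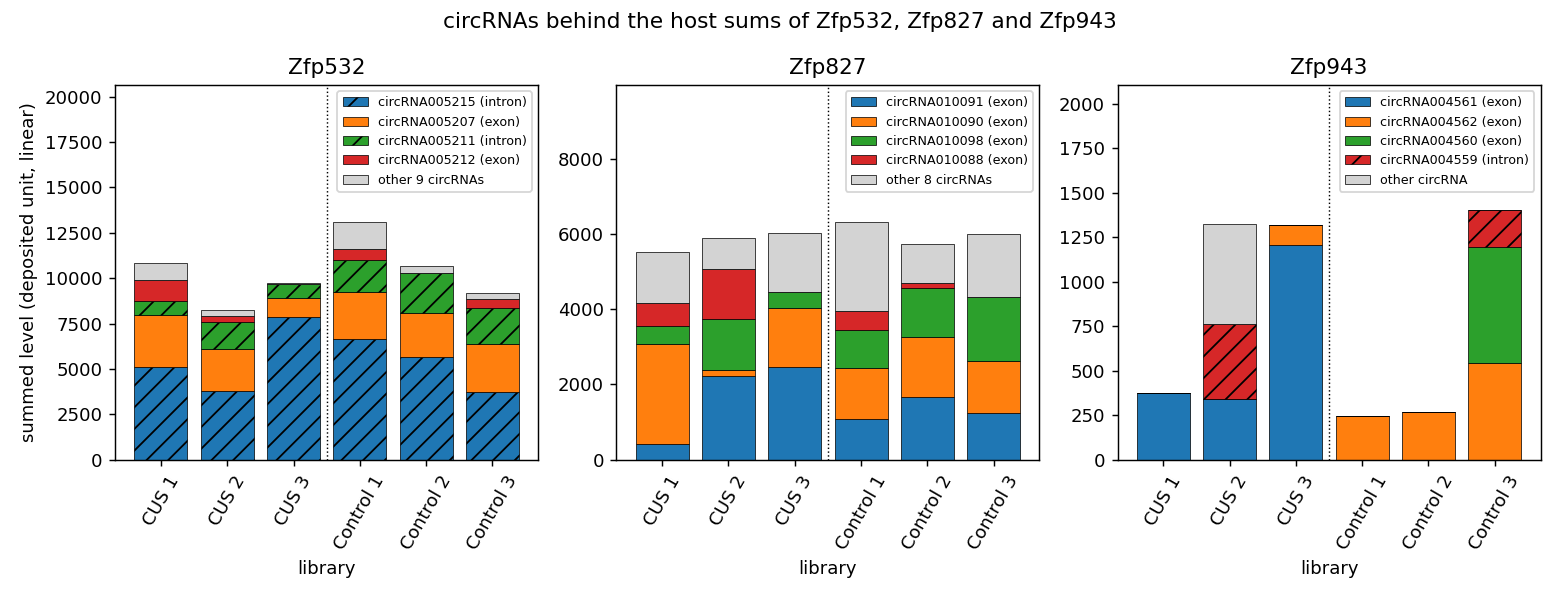
Stacked levels (y axis, linear deposited unit) of the circRNAs of Zfp532, Zfp827 and Zfp943 in each library (x axis), with the 4 circRNAs of highest mean in colour, intronic ones hatched and the rest in grey. The intronic mmu_circRNA005215 leads Zfp532 in every library, the Zfp827 sum is even while its parts vary, and the 3 CUS bars of Zfp943 hold mmu_circRNA004561, which is listed at 0 in the 3 Control bars.

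Other hosts of high level lacked the KRAB motif as well. Zfp148, which encodes a factor that binds GC-rich promoters, was at 1542, 6221 and 4075 across CUS libraries, against 5004, 3194 and 3317 in Control. Its sum came mostly (77.7%) from mmu_circRNA004234, which was at 1026, 5008 and 2808 across CUS libraries and at 3146, 2849 and 3317 in Control. The Control libraries were close to each other for this circRNA, and the CUS libraries lay on both sides of them. Zfp385b was at 3290, 2738 and 3428 across CUS libraries, against 1222, 6926 and 2431 in Control, nearly all of it (98.2%) from mmu_circRNA006106. Here the CUS libraries were the close ones. Neither host passed (limma adjusted p = 0.960 for Zfp148 and 0.949 for Zfp385b).

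Zfp608, a relative of Zfp609, was at 1129, 3077 and 1033 across CUS libraries, against 797, 1172 and 1492 in Control, over 6 circRNAs. Its leading mmu_circRNA005153 was at 504, 912 and 658 across CUS libraries, against 205, 315 and 481 in Control, so every CUS library lay above every Control library (log2 difference 0.99, SE 0.89, limma adjusted p = 0.87). Zfp609, whose protein works with the cohesin loader Nipbl and the Integrator complex in mouse neural progenitors, was low here. Its 2 circRNAs summed to 0, 761 and 0 across CUS libraries, against 266, 0 and 0 in Control, too few libraries above 0 to be tested. A human circRNA of this gene is known from muscle cells. No circRNA here was matched to it, as only the host symbol was compared.

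Zfp62 was at 1306, 1240 (1239.9) and 1998 across CUS libraries, against 2028, 1442 and 803 in Control, with 87.9% from mmu_circRNA001572. Zfp638, which encodes a large nucleic acid binding protein that silences retroviral DNA, was at 1306, 1380 (1379.7) and 1112 across CUS libraries, against 1523, 993 and 2380.3 in Control. Zfp516, a regulator of brown fat genes, was at 242, 1097 and 1261 across CUS libraries, against 732, 1374 and 2474 in Control. Zfp536, a brain gene that restrains neuronal differentiation, was at 1719, 323 and 1027 across CUS libraries, against 449, 1210.3 and 588 in Control. The groups overlapped in each of these 4 hosts, and the lowest limma adjusted p among them was 0.917, for Zfp516. Zfp462, a chromatin regulator in development with 33 finger motifs, spread its sum over 7 circRNAs, and 0 of them was above 0 in both groups. Its host sum was 575, 183 and 603 across CUS libraries and 0, 1654 and 415 in Control.

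The comparison of CUS with Control was then made for each host. Testing required a level above 0 in 3 or more of the 6 libraries, a condition that 37 of 58 Zfp hosts and 60 of 130 Zfp circRNAs met. Differences are on log2(level + 45.5) and understate the change of low hosts, and p-values were adjusted over all hosts or all circRNAs of the table. Of the 37 tested Zfp hosts, 19 were fitted higher in CUS and 18 lower, with a median log2 difference of 0.15, against -0.05 over all 2151 hosts tested. With limma 0 of 37 passed an adjusted p under 0.05 and 0 of all hosts did (0%). An unadjusted p under 0.05 was reached by 2 (5.41%), where 5.86% of all tested hosts reached it. Of these, 1 was higher (2.56% of all tested hosts) and 1 lower (3.3%). Groups did not overlap in 3 hosts (8.11%), against 11.4% of all tested hosts, with CUS above in 2 (5.86%) and below in 1 (5.53%). Of these 3, 2 were listed at 0 in every library of 1 group and met the condition for testing only through the other group, which by itself fixes their separation. Both shares are close to or below those of the whole table, so they are not a result about the Zfp hosts. Over all 58 hosts, tested or not, 28 had a higher and 30 a lower mean in CUS.

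Zfp563, with a KRAB motif and 10 fingers (chromosome 17, 33089310 to 33110705), had the smallest p of the Zfp hosts. Its lone circRNA, the exonic mmu_circRNA004646, stood at 643 in CUS replicate 1, 586 in replicate 2 and 677 in replicate 3, and was listed at 0 in the 3 Control libraries. The CUS libraries were close to each other. With every Control library listed at 0, the host met the condition for testing only if all 3 CUS libraries were above 0. A tested host that is listed at 0 throughout Control therefore always separates from it. It did not pass (limma adjusted p = 0.708). Of the 50-base stretches in its longest coding transcript, 0% were found in a transcript of another gene, so near-identical copies were not seen for this host.

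Zfp236, a host with 30 finger motifs (chromosome 18, 82593593 to 82692883), had the smallest p on the lower side. Its 5 circRNAs summed to 1722, 331 and 410.4 across CUS libraries, against 2530 (2529.9), 2428 and 1567 in Control. CUS replicates 2 and 3 lay far below every Control library and CUS replicate 1 within their range, and the log2 difference was -1.69 with SE 0.64 (limma adjusted p = 0.708). The leading mmu_circRNA005307 was at 740 (739.9), 331 and 0 across CUS libraries, against 968, 1233 and 825 in Control, with no overlap (limma adjusted p = 0.83). The circRNA mmu_circRNA005308 was listed at 0 in CUS replicates 1 and 2 and stood at 332 in CUS replicate 3, against 377, 275 and 497 in Control.

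Zfp800 was at 705, 984 and 943 across CUS libraries, against 273, 0 and 338 in Control. Every CUS library was above every Control library, with a log2 difference of 2.37 (SE 1.18) that includes Control replicate 2 at 0 (limma adjusted p = 0.841). Without that library the log2 difference was 1.39. Zfp365, which encodes a centrosomal protein that binds DISC1, was listed at 0 in the 3 CUS libraries and stood at 72.4, 75.6 and 181 in Control (limma adjusted p = 0.874). The 72.4 and 75.6 are near the lowest levels above 0 in the table, which were 41.0 to 50.1 by library, while the 181 lies higher. Further on the higher side by p were Zfp458 (637, 0 and 837 across CUS libraries, against 0, 320 and 0 in Control) and Zfp426 (215, 204 and 0 across CUS libraries, against 0, 0 and 106 in Control). Further on the lower side were Zfp157 (0, 0 and 179 across CUS libraries, against 106, 204 and 774 in Control) and Zfp280c (0, 0 and 894 across CUS libraries, against 1345, 550 (549.7) and 0 in Control). The groups overlapped in these 4.

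Single circRNAs were compared in the same way. Of 60 tested Zfp circRNAs 30 were fitted higher in CUS and 30 lower, with a median log2 difference of -0.01, and 0 passed with limma, as for the whole table of 3896 (0%). An unadjusted p under 0.05 was reached by 6 (10.0%), where 6.01% of all tested circRNAs reached it. Of these, 3 were higher (2.75% of all tested circRNAs) and 3 lower (3.26%). Of the 6, 5 were listed at 0 in every library of 1 group. Groups did not overlap in 10 circRNAs (16.7%), against 10.9% of all tested, with CUS above in 5 (5.78%) and below in 5 (5.08%). Of these 10, 5 were listed at 0 in every library of 1 group, so meeting the condition for testing fixed their separation. The rest had values above 0 in both groups. How many in the whole table were at 0 throughout 1 group was not counted. The set was chosen with earlier results of these data known, so the share is no result about the Zfp circRNAs.

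Zfp943 (chromosome 17, 21962552 to 22071168), also with a KRAB motif, had 2 circRNAs that separated the groups in opposite directions under a host sum that overlapped. The sum was 374, 1326 and 1318 across CUS libraries, against 246, 270 (269.8) and 1404 in Control (log2 difference 0.85, SE 0.86, limma adjusted p = 0.917), and the difference was 1.61 without Control replicate 3 and 0.45 without Control replicate 1. Of its 5 circRNAs, mmu_circRNA004561 was above 0 in every CUS library (374, 342 and 1204) and listed at 0 in the 3 Control libraries. As Control was listed at 0 throughout, testing required all 3 CUS libraries to be above 0. Its separation from Control was then fixed. Its neighbour by number, mmu_circRNA004562, was at 0, 0 and 114 across CUS libraries, against 246, 270 (269.8) and 543 in Control. Neither passed (limma adjusted p = 0.577 for mmu_circRNA004561 and 0.87 for mmu_circRNA004562). A further 2, mmu_circRNA004560 at 654 in Control replicate 3 and mmu_circRNA004563 at 565 in CUS replicate 2, were each above 0 in 1 library. The intronic mmu_circRNA004559 was above 0 in both groups, at 420 (419.6) in CUS replicate 2 and 207 in Control replicate 3. Of the 50-base stretches of the Zfp943 transcript 3.97% occur in transcripts of other genes, most often of Zfp758.

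Zfp536 and Zfp407 held circRNAs of the same kind inside overlapping sums. mmu_circRNA009238 of Zfp536 was at 380.3, 258 and 674 across CUS libraries and listed at 0 in the 3 Control libraries. mmu_circRNA005317 of Zfp407, which encodes a factor for PPAR gamma target genes in fat cells, was listed at 0 in the 3 CUS libraries and stood at 372, 628 and 460.2 in Control. Both had a limma adjusted p of 0.577, the lowest among the Zfp circRNAs. Each met the condition for testing only through the group where it was above 0, which by itself fixes its separation. The Zfp407 host sum was 672, 1471 and 280 (279.96) across CUS libraries, against 674, 1114 and 1008 in Control. In Zfp148, mmu_circRNA004230 was at 516, 761 and 1158 across CUS libraries, against 1009, 345 and 0 in Control, and in Zfp638, mmu_circRNA008872 was at 619, 121 and 0 across CUS libraries, against 1074, 192 and 2061 in Control. These last 2 overlapped between groups.

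**Figure D3:**
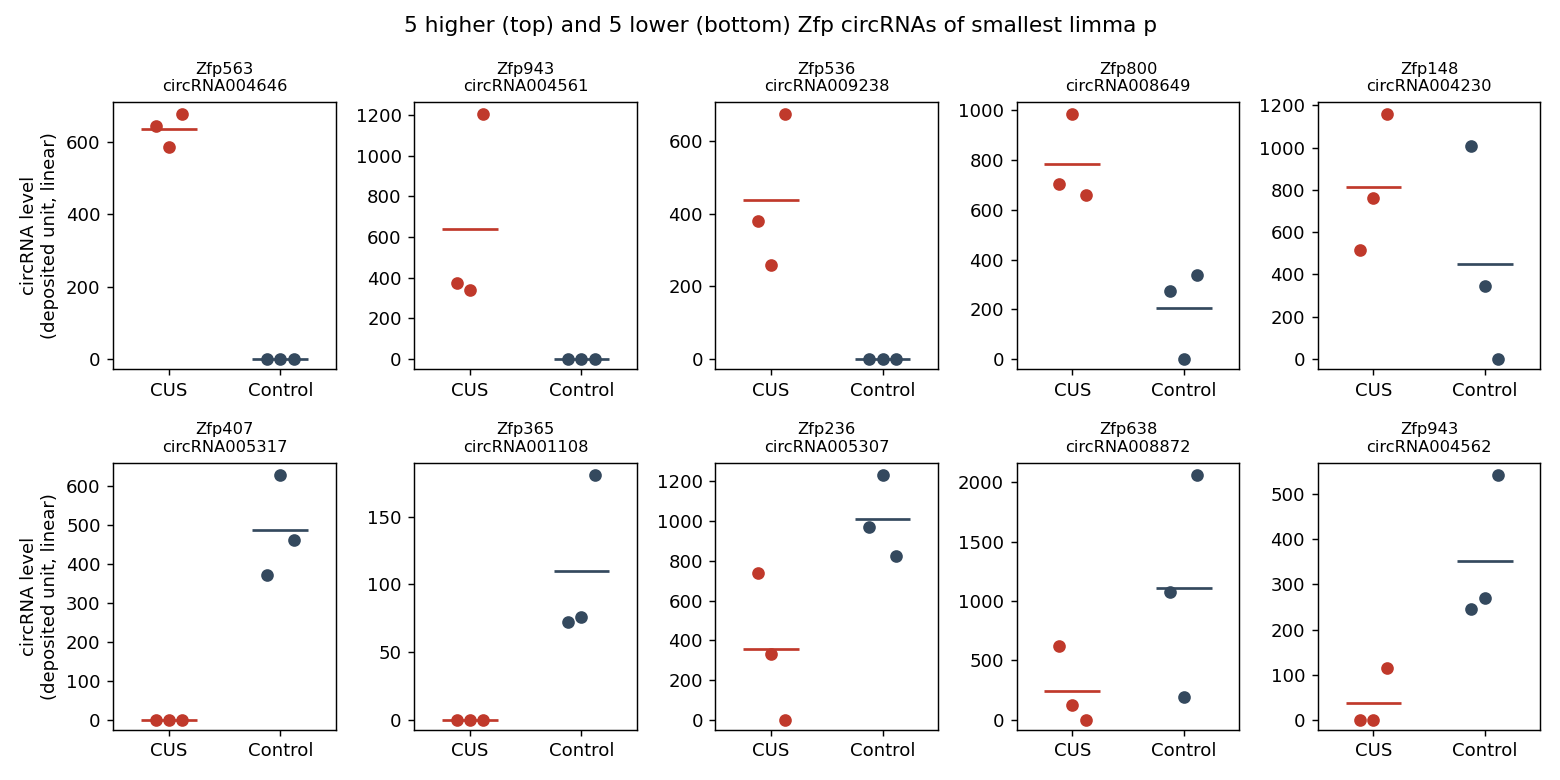
Levels (y axis, linear deposited unit) of the 5 higher and 5 lower tested Zfp circRNAs of smallest limma p, with 1 point per library and a line at the group mean, CUS left and Control right. In the first 3 panels of the upper row and the first 2 of the lower row every library of 1 group is at 0, and 0 of the 10 passed the adjusted threshold.

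The hosts with a KRAB motif were then set beside those without it. The 20 KRAB hosts carried 12.1% of the Zfp level, with a median gene length of 22.0 kb, and 15 of them had 1 circRNA. The 38 hosts without the motif carried 87.9%, with a median length of 75.6 kb, and 19 of them had 1 circRNA. The summed KRAB level was 5089, 6952 and 6040 (6040.0) across CUS libraries, against 3341, 3318 and 7134 in Control. All CUS values were above Control replicates 1 and 2 and below Control replicate 3, and the means were 6027 ± 932 across CUS libraries and 4598 ± 2196 in Control (SD, n = 3 each). For the hosts without the motif the sums were 34746, 40379 and 36230.2 across CUS libraries, against 39421, 43744 and 37617 in Control, with overlap.

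Of the 12 KRAB hosts that were tested 10 were fitted higher in CUS and 2 lower, with a median log2 difference of 0.46. Leaving out CUS replicate 2 gave a median of 0.14, and leaving out CUS replicate 3 gave 0.87. Of the 25 tested hosts without the motif 9 were higher and 16 lower, with a median of -0.14, beside -0.05 over all tested hosts. The difference between the 2 kinds was not tested. Over all 20 KRAB hosts, 11 had a higher and 9 a lower mean in CUS, and without CUS replicate 2 the tested ones split into 6 and 6. After Zfp943, the KRAB hosts of highest mean were Zfp871 and Zfp141. Zfp871 was at 722, 995 and 671 across CUS libraries and 355, 240 (239.6) and 1160 (1159.6) in Control. Zfp141 was at 551, 592 and 954 across CUS libraries and 292, 920.2 and 322 in Control. Zfp445, which protects genomic imprints, was at 481, 218 and 0 across CUS libraries and 225, 292 and 207 in Control. Zfp955a was at 79.6, 909 and 772 across CUS libraries and 546, 262 and 277 in Control, and 52.0% of the 50-base stretches of its transcript also occur in Zfp955b, so its values are uncertain. Zfp141 shares 11.7% in this way. In Zfp68 the exonic mmu_circRNA008476 and the intronic mmu_circRNA008475 differed by at most 12 of the smallest value steps in each library, so these may share reads.

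**Figure D4:**
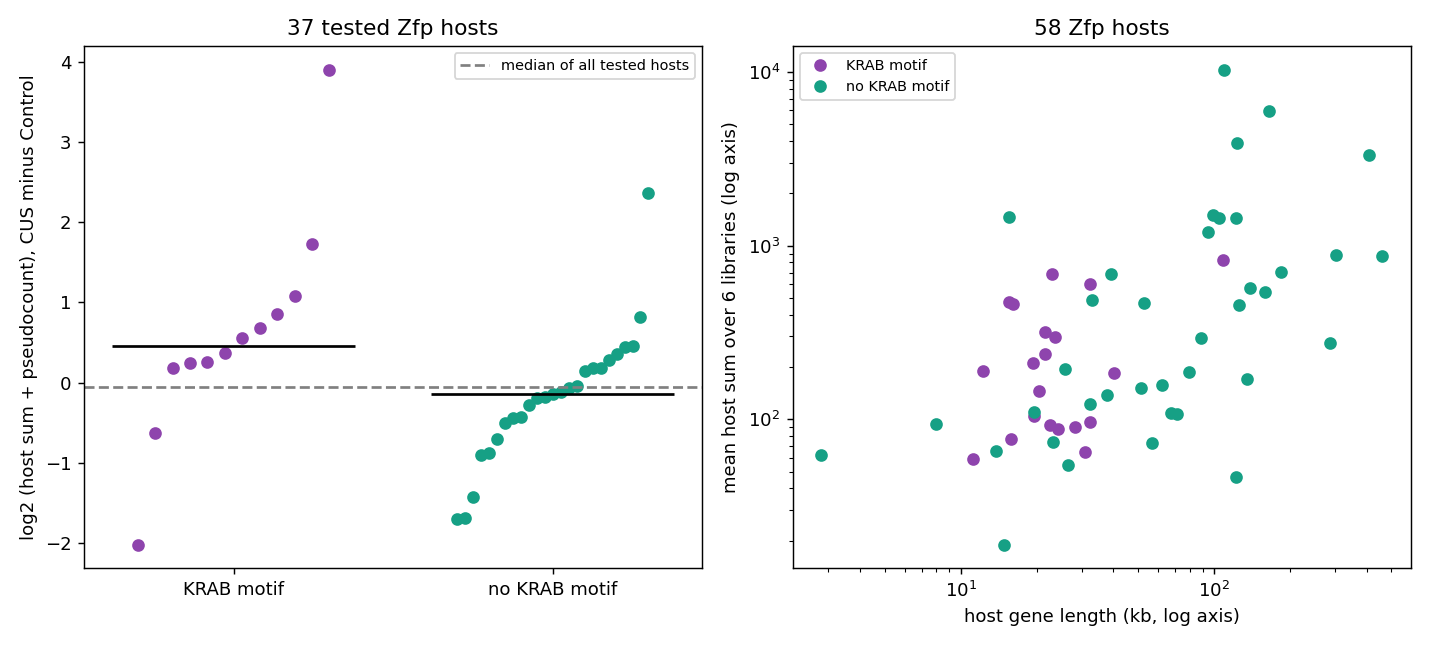
Left, log2 difference of the host sum (CUS minus Control, y axis) for the 37 tested Zfp hosts with and without a KRAB motif, with a solid line at each median (0.46 and -0.14, the first being 0.14 without CUS replicate 2) and a dashed line at the median of all tested hosts (-0.05). Right, gene length (kb, log axis) against mean host sum (linear deposited unit, log axis) for all 58 hosts, where each of the 4 highest hosts lacks the motif.

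Partners of zinc finger proteins were examined as hosts. Of 30 genes of the KRAB corepressor and heterochromatin list 9 had circRNAs and 8 were tested, 5 of them fitted higher and 3 lower, with a median log2 difference of 0.57. Atf7ip, the partner that stabilises SETDB1, was at 2621, 2526 and 3362 across CUS libraries, against 1125, 1293 and 1160 (1159.8) in Control. The groups were well apart, at 2836 ± 458 across CUS libraries and 1193 ± 89.0 in Control (SD, n = 3 each), the log2 difference was 1.21 (SE 0.49), and the host did not pass (limma adjusted p = 0.708). Smarcad1, a chromatin remodeller that binds TRIM28, was at 318, 116 and 0 across CUS libraries, against 715, 499 and 652 in Control (limma adjusted p = 0.917). Of 15 NuRD genes 3 were tested, with 2 higher and 1 lower. Mta3 was at 755, 0 and 283 across CUS libraries and 232, 0 and 0 in Control, and Gatad2b at 775, 307 and 1030.1 across CUS libraries and 225, 222 and 1218 in Control.

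Of 24 cohesin loader and Integrator genes 6 were tested, 3 higher and 3 lower. Ints8, an Integrator subunit gene, was at 908, 565 and 745 across CUS libraries, against 410.4, 0 and 0 in Control, with no overlap (limma adjusted p = 0.795), and Wapl, the cohesin release factor, at 339, 998 and 1128 across CUS libraries and 1002, 809 and 0 in Control. Of 9 BET and acetyltransferase genes 6 were tested, 4 higher and 2 lower, with Kat6a at 1521, 481 and 1033 across CUS libraries and 398, 1094 and 487 in Control and Crebbp at 165, 0 and 391 across CUS libraries and 1164, 585 and 0 in Control. Among C2H2 genes of other names, 48 were hosts and 30 were tested, with 18 higher and 12 lower and a median log2 difference of 0.41. Zkscan1, long known to form a circRNA, was at 0, 290.5 and 0 across CUS libraries, against 1181, 318 and 982 in Control. Zfx was at 430.4, 0 and 397 across CUS libraries, against 1089, 1006 and 926 in Control. Both were below every Control library in every CUS library, with limma adjusted p = 0.753 and 0.758. With limma 0 of the 53 tested genes in these 5 lists passed. An unadjusted p under 0.05 was reached by 4 (7.55%), against 5.86% of all tested hosts, and groups did not overlap in 10 (18.9%), against 11.4%. Of the 53, 30 were C2H2 genes of other names. How many of the 10 were listed at 0 in every library of 1 group was not counted. The lists were chosen with earlier results of these data known, so these shares are not a result about the partners.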

How the data were processed

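Per the labels' protocols, poly(A) RNA was purified from total RNA and made into stranded paired-end libraries with molecular identifiers. A ring has no poly(A) tail, so this selection can lower and distort circRNA recovery. The authors deposited 1 table of circRNAs with host identifiers, a class and a log10 value per library, in which the lowest value is 17 steps in each library. Per the submitters' processing notes, which give no roles, the tools included edgeR, DESeq and StringTie and the build was mm9. The name of the circRNA caller is one that the sources used here do not give. CircRNAs of several hosts (786) or none (658) were left out of host sums. Host symbols came from GENCODE vM21, which matched 3667 of 3675 identifiers, and printed positions are those of host genes on GRCm38.

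The comparison used limma 3.58.1 under R 4.3.3, with an intensity trend in eBayes, on log2(level + 45.5), the pseudocount being the libraries' median smallest nonzero level, with Benjamini-Hochberg adjustment at 0.05. The C2H2 motif was C, 2 to 4 residues, C, 12 residues, H, 3 to 5 residues, H, and the KRAB motif was a conserved stretch in the first or second part of the A box, searched in the longest translated coding sequence (Biopython 1.88) of GENCODE vM21, in place of the RefSeq proteins first planned. Named were 5 hosts given with the set, the 10 of highest mean, the 5 higher and 5 lower hosts and circRNAs of smallest p, hosts above 0 in 1 group only, hosts led by an intronic circRNA with a mean above the median, hosts with at least 5 circRNAs, and 2 genes per partner list. Other genes and circRNAs named were chosen after their values were seen. Members and lists were chosen with earlier results of these data known. Summaries used Python 3.11.15 with pandas 2.3.3 and numpy 2.4.6, and plots used matplotlib 3.10.9.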

Additional observations from a re-analysis of the deposited data

How the results depend on the processing

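The number passing an adjusted p under 0.05 with limma was 0, for all circRNAs, all hosts and the Zfp members of each, under each alternative run: 0.2 or 5 times the pseudocount, no filter, features above 0 in all 6 libraries, no trend, median ratio scaling, quantile normalization, the replicate block, each library left out, and for hosts the assignment of circRNAs with several identifiers. Deviations of same-numbered CUS and Control samples showed no positive correlation (-0.025 to -0.011 for circRNAs and -0.070 to -0.034 for host sums). This does not settle whether the samples were paired by design. With the replicate block 215 circRNAs, 6 Zfp circRNAs, 123 hosts and 2 Zfp hosts had an unadjusted p under 0.05. Among features above 0 in all 6 libraries, fewer features were tested and the number at an unadjusted p under 0.05 was 32 circRNAs (234 in the whole test), 0 Zfp circRNAs (6), 51 hosts (126) and 1 Zfp host (2). Leaving out each replicate in turn gave 188 to 212 circRNAs, 5 to 7 Zfp circRNAs, 91 to 118 hosts and 1 to 3 Zfp hosts at that level, with 1 Zfp host without CUS replicate 2 and without CUS replicate 3. The summed Zfp level in CUS minus Control was -1713, and -3806 to -57.5 with a replicate left out. Of 30 named hosts and circRNAs, 8 changed sign somewhere, 7 of them only when a library was left out. With a replicate left out, the log2 difference ran from -0.57 to 0.42 for Zfp148, -0.38 to 0.85 for Zfp385b, -0.20 to 0.44 for Zfp62, -0.049 to 0.72 for Zfp608, -0.58 to 0.033 for Zfp638, -0.22 to 0.91 for Zfp536, -0.97 to 1.64 for Zfp462 and -0.87 to 1.77 for Zfp68, and with 5 times the pseudocount Zfp462 was at -0.0023. For Zfp943 it ran from 0.45 to 1.61 and for Zfp800 from 1.39 to 2.93, and Zfp800 was at 3.19 with 0.2 times and 1.45 with 5 times the pseudocount. The cause of these sign changes was not tested. The number of reads per value is unknown, so no depth limit can be given for a circRNA listed at 0.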

Other observations

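The 7 Zfp hosts on chromosome 18, picked after their values were seen, summed to 14894, 15376 and 13607 in CUS, against 18519, 17483 and 16387 in Control, so every CUS library lay below every Control library. Zfp532 holds most of this sum, with means of 9609 across CUS libraries and 10991 in Control, and its groups overlapped. Zfp236 is a smaller part, with means of 821 across CUS libraries and 2175 in Control, and its groups overlapped too. Zfp608, Zfp438 and Zfp521 had a higher mean in CUS. No test of the chromosome 18 sum was made, since the chromosome was picked for its difference.

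The intronic circRNAs of Zfp398 and Zfp831 were the only circRNAs of their hosts. That of Zfp398 stood at 601 in CUS replicate 1 and 228 in CUS replicate 3 and was listed at 0 elsewhere, and that of Zfp831 was at 649 in CUS replicate 1 and listed at 0 in the other 5 libraries.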
